A study of Mus musculus with 346 samples.

Results

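Lin28a, Lin28b, Trim71, Hmga2, Igf2bp1, Igf2bp2, Igf2bp3 and Dnmt3b, 8 genes known for early embryonic expression and for their part in developmental timing, were followed from E8.5 to E14.5 in single cells of mouse foregut, pancreas and liver. They were chosen by name, all 8 had a row among the 20474 genes of the deposited table, and all 8 were among the 11688 genes found in at least 5% of cells. The study sequenced single cells that carried GFP from Tg(Prox1-EGFP) embryos, a transgene whose reporter follows the promoter of Prox1, a transcription factor of early hepatic and pancreatic cells. The cells analysed here came from the foregut at E8.5 (82 cells, plate 1A), the dorsal pancreatic bud at E10.5 (86 cells, plates 2A and 2B), the ventral pancreatic bud at E10.5 (27 cells, plate 3), the liver bud at E10.5 (78 cells, plate 5A) and the pancreas at E14.5 (73 cells, plate 4A). All cells carry the same transgene, and no group is a mutant or was treated. The labels name no embryo, so cells are not replicates, each group counts as 1 sample, and values below are given without a test or p-value. Each tissue and stage was on plates of its own, so the parts of stage and plate in a difference between stages, or of tissue and plate between the E10.5 tissues, cannot be told apart.

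LIN28 proteins bind the precursors of let-7 microRNAs and keep them from maturing. Mature let-7 in turn lowers messages that match its seed in their 3′ UTR, and the Lin28 genes, Trim71, Hmga2 and the Igf2bp genes are among its textbook targets. In Caenorhabditis elegans lin-28, let-7 and lin-41, the counterpart of Trim71, order the larval stages, and in mammals the same genes are known for high expression in early embryos and decline later. Dnmt3b, a de novo DNA methyltransferase, is a gene of the same early period and is not a member of the let-7 circuit.

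The let-7 sequences show what members of the circuit are matched to, and they are printed with the seed, bases 2 to 8, in capitals. Of the mature forms that RefSeq (GRCm38.p6) lists for the family, 11 were taken, each a 5p form or the only form of its hairpin. Of these 11 forms 10 share the seed GAGGUAG. The remaining form, let-7j, has GAGGUAU. Mature let-7 was not measured in these libraries.
let-7a-5p: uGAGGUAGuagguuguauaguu
let-7g-5p: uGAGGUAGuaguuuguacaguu
miR-98-5p: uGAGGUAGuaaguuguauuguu
let-7j: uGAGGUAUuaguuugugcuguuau

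LIN28 is known to hold let-7 precursors through a GGAG in the loop between both arms. Of 13 hairpins listed, 8 have these letters between the arms, 3 do not, and 2 have no second arm listed. A hairpin with GGAG (in capitals) and one without are shown to compare the loops.
let-7g (chr9:106178840-106178927, plus strand): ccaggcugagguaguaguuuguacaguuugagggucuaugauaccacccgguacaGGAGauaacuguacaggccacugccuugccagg
let-7b (chr15:85707319-85707403, plus strand): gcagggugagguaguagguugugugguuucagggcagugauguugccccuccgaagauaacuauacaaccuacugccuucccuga

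The match to the seed in a message, CTACCTC, was searched on the sense strand of the longest annotated 3′ UTR of each gene (GENCODE M21, GRCm38). It occurred in 7 of 8 members and in 8.96% of 20979 3′ UTRs with a median length of 954 bases. Trim71, Hmga2, Igf2bp1 and Lin28b each had 4 matches, Lin28a had 2, and Igf2bp2 and Igf2bp3 had 1. Dnmt3b had 0. The members have long 3′ UTRs, from 1331 bases in Dnmt3b to 6337 bases in Igf2bp1, and among UTRs within 20% of the same length the share with a match was higher than over all UTRs, from 9.29% for Dnmt3b to 33.8% for Igf2bp1. A match is a description of the letters and does not show that let-7 acts there. One match per gene is printed with the bases before it, the match and a following A in capitals, all on the minus strand of GRCm38.
Lin28a (chr4:134005189-134005211): gcacagcctgttgaaCTACCTCA
Lin28b (chr10:45381022-45381044): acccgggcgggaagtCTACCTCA
Trim71 (chr9:114512472-114512494): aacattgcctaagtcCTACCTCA
Hmga2 (chr10:120364224-120364246): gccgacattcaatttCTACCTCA
Igf2bp1 (chr11:95961778-95961800): gctgtgcgaagtaaaCTACCTCA
Igf2bp2 (chr16:22059473-22059495): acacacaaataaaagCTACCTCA
Igf2bp3 (chr6:49086787-49086809): tgcatttttactcaaCTACCTCA

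The tissues held more than one cell type, so cells were also parted by single genes at a deposited log2 value of 5. Cldn6, a tight junction gene of early epithelia, parted the foregut plate into 7 positive cells, between 10.4 and 12.3, and 75 negative cells, all at 0. The 7 positive cells were all Epcam-positive and all had at least 3 gut endoderm markers. Of the 82 foregut cells, 60 had at least 3 neural tube markers, none of them Cldn6-positive, and 11 had at least 3 cardiac markers. In the dorsal bud, 66 cells were Epcam-positive and 19 were Col3a1-positive without Epcam. In the liver bud, 42 cells were Alb-positive and 18 were Col3a1-positive without Epcam. At E14.5 the label names pancreatic epithelium, yet 58 of 73 cells were Col3a1-positive without Epcam and 58 had at least 3 mesenchyme markers, while 10 were Epcam-positive, 9 of them with at least 3 endocrine markers. Prox1 itself, the gene of the sorted reporter, was detected in 71 of 82 foregut, 83 of 86 dorsal bud, 27 of 27 ventral bud and 66 of 78 liver bud cells and in 24 of 73 cells at E14.5. Median reads per cell lay between 811359 and 2510704, and the median number of genes per cell was lower at later stages, with 6548 for foregut, 5637 for dorsal bud, 4202 for ventral bud, 3582 for liver bud and 3162 for E14.5 cells. For this reason counts of members called lower or higher are set beside the same count over all genes.

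Levels are the deposited log2 values, log2 of reads divided by a size factor of the cell plus 1, with 0 for no read, and a gene was called detected at 5 or more normalized reads. Intervals on shares are exact Clopper-Pearson 95% intervals, and for a share of 0 the limit given is 3 cells of the total. Intervals, limits and floors cover counting error only, and reads are not independent molecules. A member was counted as lower or higher where mean log2 values differed by at least 1.

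**Figure D1:**
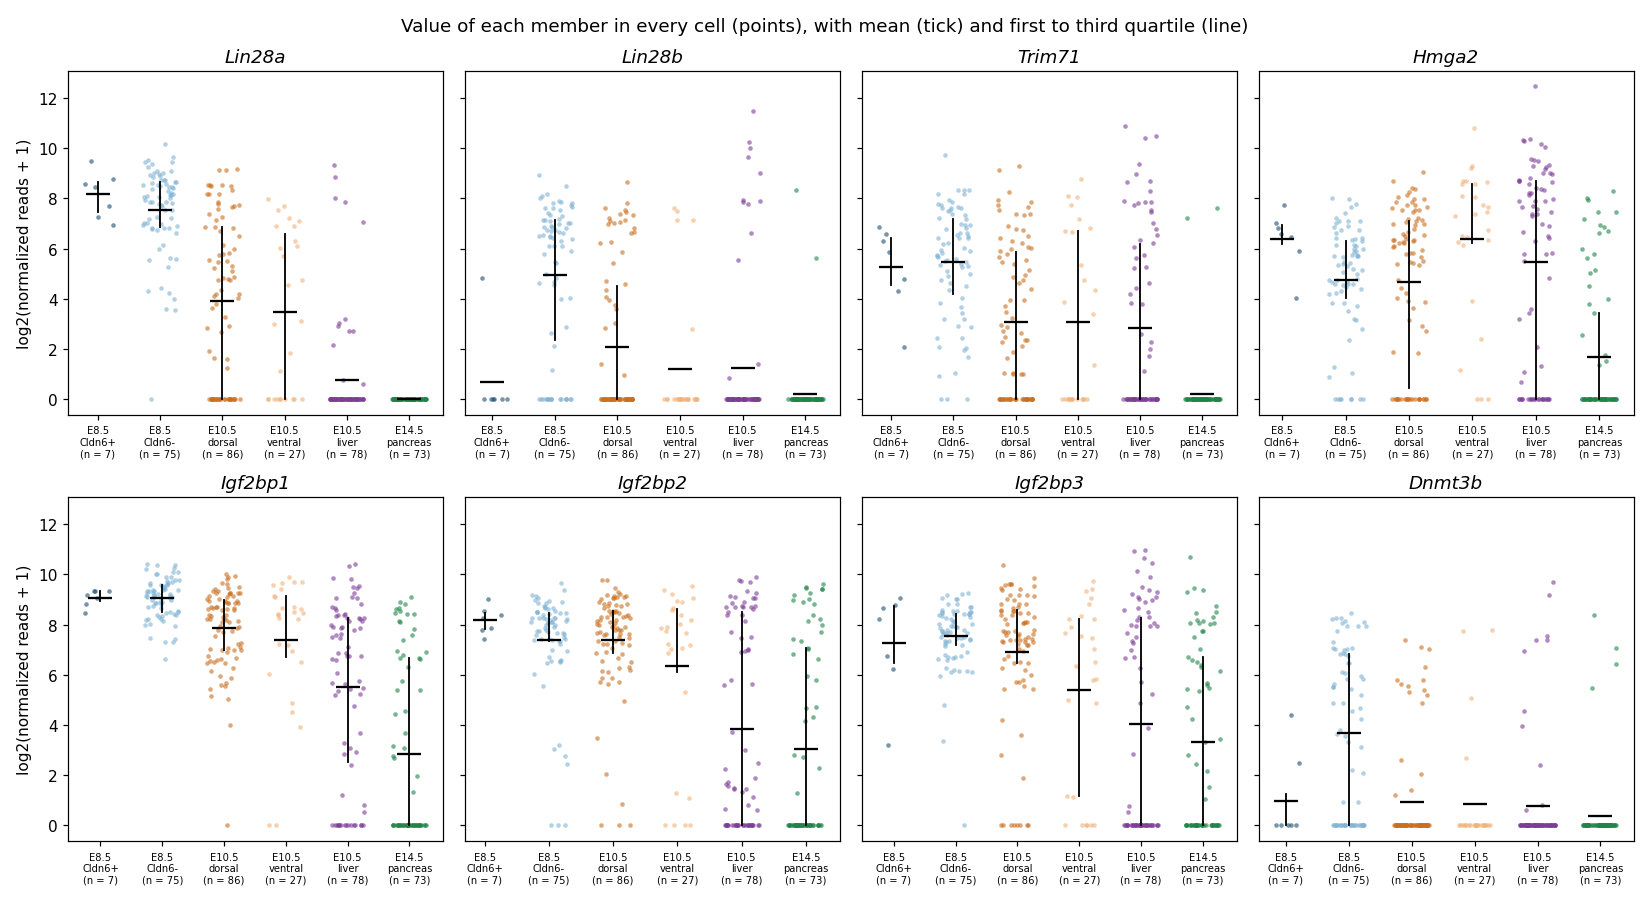
Deposited log2 value (vertical axis, log2 of normalized reads plus 1) of the 8 genes in every cell, in 6 groups from E8.5 on the left to E14.5 on the right, with the mean as a tick and the interquartile range as a line. Lin28a lies above 3 in all but 1 of the foregut cells and at 0 in all 73 cells at E14.5. The Lin28b and Dnmt3b points of the foregut lie almost all in the Cldn6-negative cells, which make up 75 of its 82 cells.

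Lin28a (ENSMUSG00000050966.9, chr4:134003330-134018841, minus strand), the LIN28 paralog known from pluripotent cells, was present in nearly every cell at E8.5 and in none at E14.5. It was detected in 81 of 82 foregut cells (98.8%, 95% interval 93.4 to 99.97), 53 of 86 dorsal bud cells (61.6%, 50.5 to 71.9), 15 of 27 ventral bud cells, 10 of 78 liver bud cells and 0 of 73 cells at E14.5, which allows a share of up to 4.11% (3 of 73). The lowest, median and highest log2 values were 0, 8.03 and 10.16 for foregut, 0, 4.27 and 9.15 for dorsal bud, 0, 3.11 and 7.96 for ventral bud and 0, 0 and 9.33 for liver bud cells, and 0 throughout at E14.5. Foregut cells were thus high as a group, bud cells spread over the whole range, and every group reached down to 0. The mean was 0 at E14.5, against 3.92 ± 3.31 in the dorsal bud (SD over 86 cells). Pooled over cells, Lin28a had 0 reads at E14.5, against 6845 reads in the dorsal bud. With the floor set at 3 reads over the group, this was 1754-fold lower relative to the total reads of each group. That value covers counting error of reads only. It is no lower bound over cells, since 3 of 73 cells with the gene would make it smaller.

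Both foregut classes had Lin28a, and their means differed by 0.63. It was detected in 7 of 7 Cldn6-positive cells (lowest 6.94, median 8.44, highest 9.50) and in 74 of 75 Cldn6-negative cells (lowest 0, median 8.03, highest 10.16). Relative to the 7 Cldn6-positive cells, the mean differed by −4.25 for the dorsal bud, by −4.69 for the ventral bud and by −7.40 for the liver bud. The median difference over all genes was −0.16 for the dorsal, −0.66 for the ventral and −0.93 for the liver bud. Among Epcam-positive cells alone it was detected in 35 of 66 cells of the dorsal bud, 15 of 25 of the ventral bud and 0 of 10 at E14.5, and among Alb-positive liver cells in 9 of 42. Where Lin28a was detected its level was also lower, with means of 6.23 for dorsal bud, 6.05 for ventral bud and 5.57 for liver bud cells, against 7.68 for foregut cells. When every cell was thinned to 500000 reads, any read of Lin28a was found in 98.8% of foregut, 65.1% of dorsal bud, 59.3% of ventral bud and 14.1% of liver bud cells and in 0% of cells at E14.5.

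Among the E10.5 classes the highest share with Lin28a was not in epithelium. In the dorsal bud it was detected in 18 of 19 Col3a1-positive cells (lowest 0, median 6.87, highest 9.13), against 35 of 66 Epcam-positive cells, a difference of means of 2.94. Col3a1-positive cells of the liver bud had 0 of 18, which allows up to 16.7% (3 of 18). Pooled over cells, the liver class had 0 reads, against 2774 in the dorsal class, 2040-fold lower relative to total reads with the same floor. Again the value covers counting error of reads only and is no lower bound over cells. The liver Col3a1-positive cells were not the same kind of cell in other respects, since 8 of 18 had at least 3 cardiac markers. Plates of the dorsal bud differed too, with 23 of 48 cells on plate 2A and 30 of 38 on plate 2B. Within Epcam-positive dorsal cells plate 2A had 18 of 41 and plate 2B 17 of 25.

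Lin28b (chr10:45376620-45486395, minus strand), the second LIN28 paralog, gave a different answer once the foregut was parted. Over the whole plate it was detected in 57 of 82 foregut cells, 29 of 86 dorsal bud cells, 5 of 27 ventral bud cells, 11 of 78 liver bud cells and 2 of 73 cells at E14.5. Within the foregut it was detected in 1 of 7 Cldn6-positive cells (14.3%, 95% interval 0.361 to 57.9, lowest 0, median 0, highest 4.82) and in 56 of 75 Cldn6-negative cells (74.7%, 63.3 to 84, lowest 0, median 6.43, highest 8.94). The difference of means was −4.25 between the classes, the largest of the 8 genes. Foregut cells with at least 3 neural tube markers had it in 49 of 60 and those with at least 3 cardiac markers in 5 of 11.

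The E8.5 to E10.5 comparison of Lin28b therefore changed sign with the cells taken as E8.5. The dorsal bud mean differed by 1.38 from that of Cldn6-positive foregut cells. From that of all foregut cells it differed by −2.51, and from that of Epcam-positive foregut cells by −0.61. Epcam-positive dorsal cells alone differed from Cldn6-positive foregut cells by 0.56, short of the limit of 1. At E10.5 the share with Lin28b in the dorsal bud was again higher outside the epithelium. It was detected in 15 of 19 Col3a1-positive cells (lowest 0, median 5.42, highest 7.82) against 13 of 66 Epcam-positive cells. In the liver bud the order was the other way, with 0 of 18 Col3a1-positive and 9 of 42 Alb-positive cells. The liver cells that had it were high, with a mean of 8.55 over the detected cells and a highest cell of 11.46, against 6.53 in foregut cells. Dorsal and liver Col3a1-positive cells thus differed for both LIN28 genes, by −6.24 for Lin28a and −4.60 for Lin28b as liver minus dorsal.

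At E8.5 every cell with Lin28b also had Lin28a. The foregut had 57 cells with both, 24 with Lin28a alone, 0 with Lin28b alone and 1 with neither. The dorsal bud had 21 cells with both, 32 with Lin28a alone, 8 with Lin28b alone and 25 with neither, so that either could be found without the other. The liver bud had 4 with both, 6 with Lin28a alone, 7 with Lin28b alone and 61 with neither. At E14.5, 71 of 73 cells had neither. Over all cells of the 5 groups Pearson's r between both genes was 0.46, and within the 82 foregut cells it was −0.01. These cells share plate, depth and number of genes per cell, and Lin28a alone had an r of 0.75 with the number of genes per cell.

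**Figure D2:**
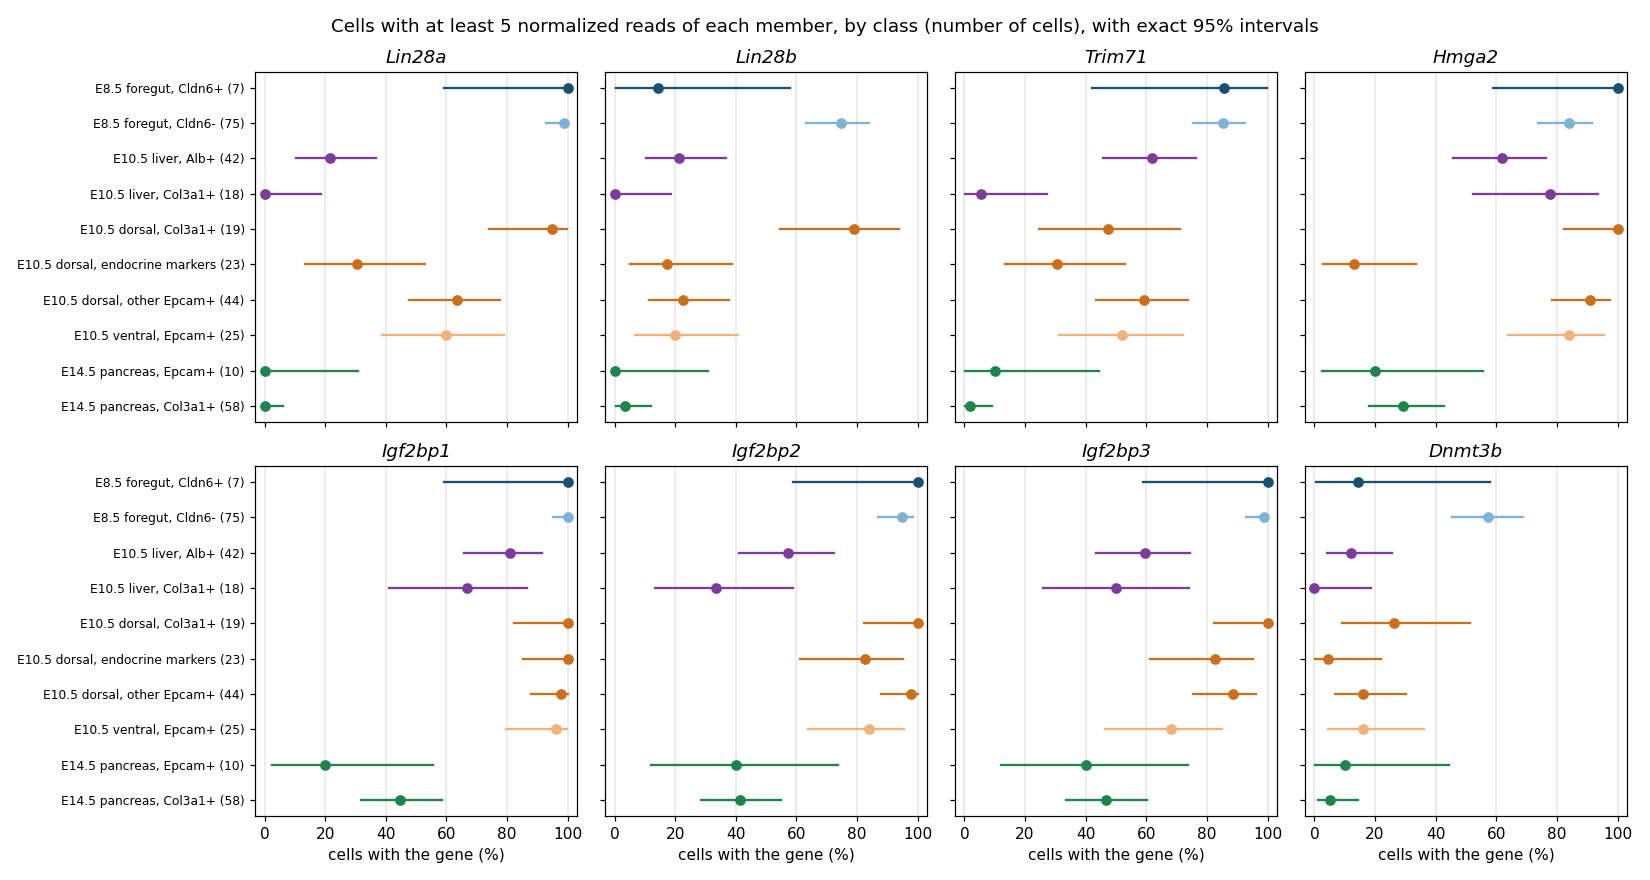
Share of cells (horizontal axis, percent) with at least 5 normalized reads of each gene in 10 cell classes from E8.5 at the top to E14.5 at the bottom, with the number of cells in brackets and exact 95% intervals as lines. Hmga2 is near the left in dorsal cells with endocrine markers (3 of 23) and near the right in the other Epcam-positive dorsal cells (40 of 44), while Igf2bp1 is high in both.

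Trim71 (chr9:114507133-114564369, minus strand), an RNA-binding ubiquitin ligase of the LIN41 family, was common at E8.5, present in part of the cells of each E10.5 tissue and rare at E14.5. It was detected in 70 of 82 foregut cells, 42 of 86 dorsal bud cells, 13 of 27 ventral bud cells, 31 of 78 liver bud cells and 2 of 73 cells at E14.5. Both foregut classes had it, in 6 of 7 Cldn6-positive cells (lowest 2.10, median 5.87, highest 6.88) and 64 of 75 Cldn6-negative cells. In the liver bud its cells were mostly Alb-positive, with 26 of 42 (lowest 0, median 4.53, highest 10.49), against 1 of 18 Col3a1-positive cells. Of the same 42 cells, 9 had Lin28a.

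The mean log2 value of Trim71 differed from that of Cldn6-positive foregut cells by −2.19 for the dorsal bud, −2.18 for the ventral bud and −2.42 for the liver bud. Where it was detected, the mean was 5.80 for dorsal bud, 6.29 for ventral bud and 6.91 for liver bud cells, against 6.13 for foregut cells, so the cells that had the message had it at a like or higher level. On linear means the log2 ratio to Cldn6-positive cells was −0.11 for the dorsal bud, 0.21 for the ventral bud and 1.07 for the liver bud, so the direction depended on the scale.

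Hmga2 (chr10:120361275-120476469, minus strand), a chromatin protein of growing embryonic cells, was still common at E10.5 and was lower at E14.5. It was detected in 70 of 82 foregut cells, 62 of 86 dorsal bud cells, 22 of 27 ventral bud cells, 53 of 78 liver bud cells and 19 of 73 cells at E14.5. The lowest, median and highest values were 0, 5.40 and 8.03 for foregut, 0, 5.89 and 9.05 for dorsal bud, 0, 7.39 and 10.80 for ventral bud, 0, 7.15 and 12.46 for liver bud and 0, 0 and 8.31 for E14.5 cells. The highest E10.5 cells thus lay above every foregut cell. As RPKM, reads scaled to exon length and to the reads of the cell, the mean level was 8.05 for foregut, 12.8 for dorsal bud, 35.8 for ventral bud, 32.7 for liver bud and 3.57 for E14.5 cells.

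The foregut split moved Hmga2 in the opposite direction from Lin28b. All 7 Cldn6-positive cells had it (lowest 4.03, median 6.58, highest 7.74), against 63 of 75 Cldn6-negative cells (lowest 0, median 5.29, highest 8.03), a difference of means of 1.61. Set against the 7 Cldn6-positive cells, the mean differed by −1.70 for the dorsal bud and by 0.17 for Epcam-positive ventral bud cells. In the dorsal bud the cells without it lay mostly among those with endocrine markers such as Chga, Gcg, Neurog3 and Isl1. Of 23 cells with at least 3 such markers, 3 had Hmga2 (lowest 0, median 0, highest 6.98), against 40 of 44 Epcam-positive cells without (lowest 0, median 6.44, highest 9.05), a difference of means of −5.37 (0.70 ± 1.92 against 6.08 ± 2.07, SD over cells). Dorsal Col3a1-positive cells had it in 19 of 19. Both kinds of liver cell also had it, with 26 of 42 Alb-positive and 14 of 18 Col3a1-positive cells.

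At E14.5, Hmga2 was detected in 2 of 10 Epcam-positive and 17 of 58 Col3a1-positive cells. Of 12 cells with at least 3 endocrine markers 1 had it, close to the dorsal endocrine cells, with a difference of means of −0.01. As 9 of the 10 Epcam-positive cells at E14.5 carried endocrine markers and 44 of 66 in the dorsal bud did not, the difference of −3.20 between Epcam-positive cells at E14.5 and in the dorsal bud compares unlike mixtures. Among Col3a1-positive cells, E14.5 minus dorsal bud gave −4.29 for Hmga2 and E14.5 minus liver bud gave −4.87.

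The 3 IGF2 mRNA-binding proteins, which bind messages and steady them or steer their translation, were the members detected in the most cells at E14.5. Igf2bp1 (chr11:95957163-96005940, minus strand) was detected in 82 of 82 foregut cells, 85 of 86 dorsal bud cells, 25 of 27 ventral bud cells, 58 of 78 liver bud cells and 31 of 73 cells at E14.5. Its lowest, median and highest values were 6.62, 9.15 and 10.43 for foregut, 0, 8.27 and 10.02 for dorsal bud, 0, 8.44 and 9.90 for ventral bud, 0, 6.76 and 10.40 for liver bud and 0, 0 and 9.11 for E14.5 cells. Nearly all cells of the pancreatic buds had it, liver bud cells were mixed, and at E14.5 42.5% of cells had it, with a mean of 2.85 ± 3.51 at E14.5, against 7.89 ± 1.59 in the dorsal bud (SD over cells). The means of the foregut classes differed by 0.03.

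Igf2bp2 (chr16:22059009-22163299, minus strand) was detected in 78 of 82 foregut, 81 of 86 dorsal bud, 21 of 27 ventral bud, 35 of 78 liver bud and 30 of 73 E14.5 cells. Igf2bp3 (chr6:49085223-49214957, minus strand) was detected in 81 of 82 foregut, 77 of 86 dorsal bud, 19 of 27 ventral bud, 39 of 78 liver bud and 34 of 73 E14.5 cells. The share of cells thus differed more than the level in the cells that had either gene. The mean over detected cells of Igf2bp2 was 7.79 for foregut, 7.80 for dorsal bud, 8.04 for ventral bud, 8.01 for liver bud and 7.32 for E14.5 cells. For Igf2bp3 it was 7.63 for foregut, 7.71 for dorsal bud, 7.54 for ventral bud, 8.08 for liver bud and 6.95 for E14.5 cells. Igf2bp3 shares 1529 of its 8159 exon bases with Malsu1 on the other strand, and whether the counting used strand is not given in the sources used here. Of the 34 cells with Igf2bp3 at E14.5, 29 had no detected Malsu1. Elsewhere Malsu1 was detected in more of the cells with Igf2bp3: 62 of 81 foregut, 44 of 77 dorsal bud, 5 of 19 ventral bud and 24 of 39 liver bud cells. The mean log2 value of Malsu1 was 4.57 for foregut and 1.39 for E14.5 cells. The part of the overlap in the values of Igf2bp3 was not tested. Exons of Lin28a, Trim71, Hmga2 and Igf2bp1 also overlap other annotated genes, by at most 234 bases (Lin28a with Gm13061, on the other strand).

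Cells with all 3 paralogs were frequent at E8.5 and few at E14.5. All 3 were detected in 77 of 82 foregut cells, 71 of 86 dorsal bud cells, 15 of 27 ventral bud cells, 18 of 78 liver bud cells and 7 of 73 cells at E14.5. Over the same groups the median number of genes per cell went from 6548 to 3162, and its part was not tested. None of the 3 was detected in 9 liver bud cells and 14 cells at E14.5, and in no cell of the other groups, so most E14.5 cells had 1 or 2 of them. As RPKM, mean levels in the foregut were 56.2 for Igf2bp1, 32.5 for Igf2bp2 and 27.3 for Igf2bp3, and at E14.5 they were 7.03 for Igf2bp1, 14.3 for Igf2bp2 and 11.9 for Igf2bp3.

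Dorsal cells with endocrine markers, few of which had Hmga2, all had Igf2bp1. At E14.5, 3 of 12 cells with endocrine markers had Igf2bp1, against 23 of 23 in the dorsal bud, where it lay between 4.02 and 9.65, a difference of means of −5.39. The same comparison gave −2.45 for Igf2bp2 and −2.15 for Igf2bp3, each detected in 6 of 12 cells at E14.5 and 19 of 23 in the dorsal bud. Between Epcam-positive cells of E14.5 and the dorsal bud the difference of Igf2bp1 was −6.49, from 2 of 10 against 65 of 66 cells. In the liver bud, Igf2bp2 was detected in 24 of 42 Alb-positive and 6 of 18 Col3a1-positive cells, against 19 of 19 Col3a1-positive cells of the dorsal bud.

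Dnmt3b (chr2:153649450-153687730, plus strand), which sets new DNA methylation in the early embryo, had a lower mean in Cldn6-positive than in Cldn6-negative foregut cells, as Lin28b did. It was detected in 44 of 82 foregut cells, 13 of 86 dorsal bud cells, 4 of 27 ventral bud cells, 8 of 78 liver bud cells and 4 of 73 cells at E14.5. In the foregut it was found in 1 of 7 Cldn6-positive cells (lowest 0, median 0, highest 4.42) and 43 of 75 Cldn6-negative cells (lowest 0, median 4.26, highest 8.46), a difference of means of −2.69. The exact interval of 1 of 7, given above for Lin28b, includes the share of the Cldn6-negative cells with Dnmt3b. That interval covers counting error only and cells are not replicates, so it decides no difference between the classes. Foregut cells with at least 3 neural tube markers had Dnmt3b in 35 of 60. Relative to the 7 Cldn6-positive cells the dorsal bud differed by −0.07, the ventral bud by −0.12 and the liver bud by −0.21, and E14.5 differed from the dorsal bud by −0.54, short of the limit of 1. On the log2 ratio of linear means, however, Dnmt3b was 1.29 for the dorsal bud, 2.02 for the ventral bud and 2.61 for the liver bud, past the limit of 1. Its highest log2 value was 7.38 in the dorsal, 7.79 in the ventral and 9.70 in the liver bud.

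For the E8.5 to E10.5 step the members were counted beside all genes. Between the dorsal bud and Cldn6-positive foregut cells 4 of 8 members were lower, where 25.2% of all genes were, and 1 (Lin28b) was higher, where 14.9% were. The ventral bud gave 5 lower (41% of all genes) and none higher (6.36%), and the liver bud 5 lower (48.2%) and none higher (4.97%). Classes of E10.5 cells were set against the same Cldn6-positive foregut cells. Epcam-positive dorsal cells gave 4 lower (28%) and none higher (14.9%). Epcam-positive ventral cells gave 5 lower (39.1%) and none higher (7.29%), and Alb-positive liver cells 5 lower (43.1%) and 1 higher (8.91%). Against the 12 Epcam-positive foregut cells the lower members were 6 (28.5%) in Epcam-positive dorsal, 6 (41.3%) in Epcam-positive ventral and 5 (46.2%) in Alb-positive liver cells. None was higher there (10.9%, 5.12% and 6.64%). The counts against Cldn6-positive foregut cells depended on the scale. On the log2 ratio of linear means 1 member, Lin28a at −1.89, was lower in the dorsal bud (10.3% of all genes) and 2, Lin28b and Dnmt3b, were higher (31.8%), with Igf2bp1 at −0.66, Hmga2 at −0.14 and Trim71 at −0.11. On that scale the ventral bud gave 1 lower (15.5%) and 3 higher (29.5%), and the liver bud 2 lower (13.9%) and 4 higher (41.1%). Lin28b, Hmga2 and Dnmt3b were higher in both, and Trim71 in the liver bud as well. Alb-positive liver cells gave 1 lower (20.2%) and 3 higher (38.4%). Lin28a was lower in all of these, at −2.59 in the ventral bud and −3.84 in the liver bud.

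Between E14.5 and the dorsal bud 7 of 8 members were lower, all but Dnmt3b, where 44.4% of all genes were, and none was higher (3.54%). Their median difference was −3.28, against −0.85 over all genes. Against the ventral bud, which had fewer genes per cell and a median of −0.25 over all genes, 7 were lower (22.4%) and none higher (8.07%), with Lin28b at the limit of 1. Within Epcam-positive cells 7 were lower against the dorsal bud (38.1%) and 7 against the ventral bud (25.6%), and none was higher (9.21% and 16.2%). Here 9 of 10 E14.5 cells carried endocrine markers and 44 of 66 dorsal cells did not, so the dorsal comparison sets unlike mixtures side by side. Its median over members was −3.25. Cells with at least 3 endocrine markers gave 5 lower (36.9%) and a median of −1.37, against −0.58 over all genes. Within Col3a1-positive cells all 8 were lower against the dorsal bud (50.1%) and none higher (4.26%), while against the liver bud Hmga2 and Igf2bp1 were lower (10.1%) and none higher (18.8%). The comparisons against the dorsal and ventral bud share the E14.5 cells and are not independent of each other.

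**Figure D3:**
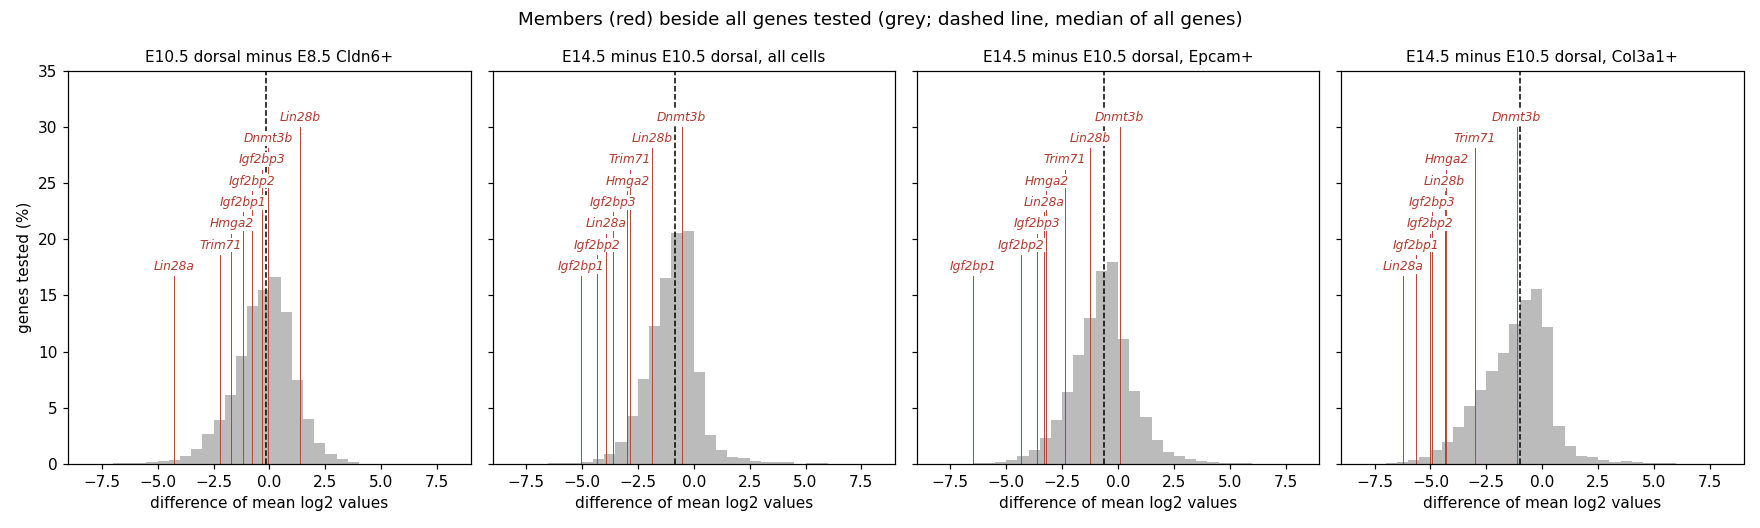
Differences of mean log2 values (horizontal axis) of the 8 genes (red lines) over the distribution of all 11688 genes (grey bars, percent of genes), for the dorsal bud minus Cldn6-positive foregut cells and for E14.5 minus the dorsal bud in all, Epcam-positive and Col3a1-positive cells, with the median of all genes dashed. In the first panel the lines straddle the median, from −4.25 for Lin28a to 1.38 for Lin28b, and in the panel of all E14.5 cells 7 of 8 lie below it, from −5.04 for Igf2bp1 to −1.87 for Lin28b.

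Cells grouped by marker counts gave further comparisons. Cells with at least 3 cardiac markers were found in the liver bud (12) and the foregut (11). As liver minus foregut, 7 of 8 members were lower, where 60.6% of all genes were, and none was higher (2.97%), with Lin28a in 0 of 12 against 11 of 11 cells and Hmga2 in 9 of 12 against 10 of 11. These cells were not alike otherwise. The liver cells had a median of 2648 genes, against 6789 in the foregut cells, a median summed log2 value over 7 cardiac markers of 39.8, against 81.5, and at least 3 mesenchyme markers in 7 of 12, against 4 of 11. Nkx2-5 was in no liver cell of this class, and the part of these differences in the result was not tested. Among dorsal bud cells, those with endocrine markers had 6 members lower than the other Epcam-positive cells, where 17.9% of all genes were. The largest of these differences was that of Hmga2, followed by Lin28a at −2.62 (7 of 23 against 28 of 44 cells) and Trim71 at −2.22 (7 of 23 against 26 of 44). Across stages, cells with endocrine markers gave 5 lower members at E14.5 than in the dorsal bud (36.9%).

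Col3a1-positive dorsal cells had 5 members higher than Epcam-positive dorsal cells, where 25.3% of all genes were, led by Lin28b (3.36) and Lin28a (2.94). As liver minus dorsal bud, Col3a1-positive cells gave 7 members lower (55.1%) and none higher (3.51%), with Hmga2 the exception at 0.58. At E8.5, the Cldn6-positive cells had 2 members lower, Lin28b and Dnmt3b (23.2%), and 1 higher, Hmga2 (16.3%), than the Cldn6-negative cells.

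Counted per cell, the foregut had a median of 7 of the 8 members (3 to 8), the dorsal and ventral buds 5 (2 to 8 and 1 to 8), the liver bud 3 (0 to 7) and E14.5 2 (0 to 5). The median number of genes per cell also went down over these groups, from 6548 for foregut to 3162 for E14.5 cells. Its part in the counts of members per cell was not tested. All 8 were detected in 24 foregut cells, 1 dorsal bud cell and 3 ventral bud cells, and in no cell of the liver bud or of E14.5. None was detected in 3 liver bud cells and 10 cells of E14.5. No group shared a single profile, and E10.5 cells in particular ranged from 0 members to all 8.

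**Figure D4:**
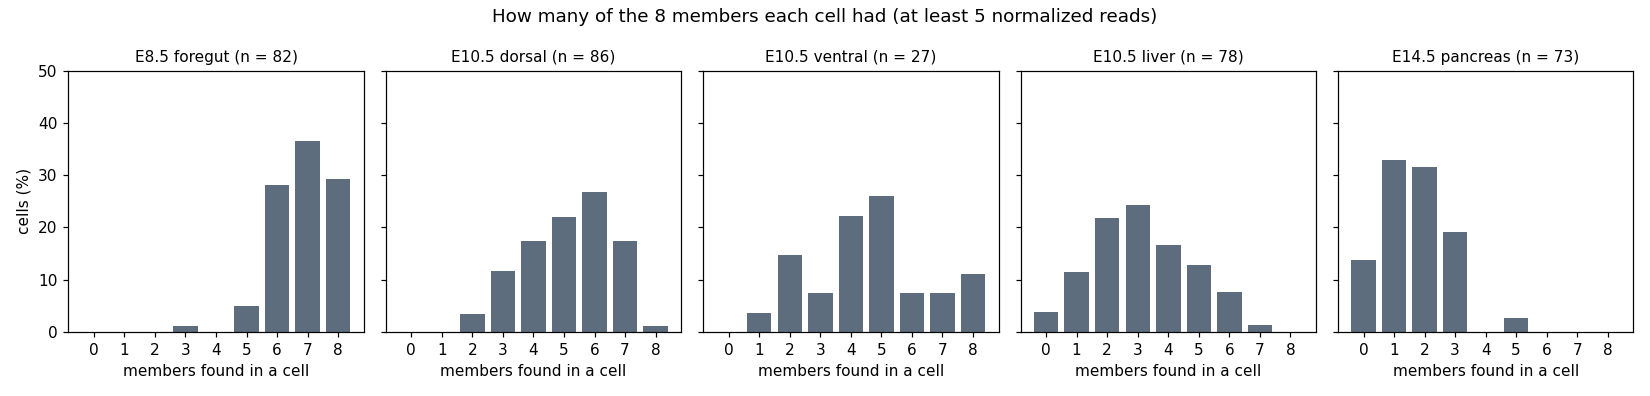
Number of the 8 genes detected in a cell (horizontal axis) against the share of cells (vertical axis, percent) in 5 groups from E8.5 to E14.5. The peak lies at 7 in the foregut, at 6 in the dorsal bud, at 5 in the ventral bud, at 3 in the liver bud and at 1 at E14.5. The median number of all genes per cell also goes down over these groups, from 6548 to 3162.

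Other genes of the pathway were counted from lists, which hold members too. The list of let-7 targets holds 7 of them, and that of let-7 biogenesis both LIN28 genes. Hmga2 is on the list of high mobility group genes and Dnmt3b on that of DNA methylation enzymes. Beside these lists stand all genes. Of all genes 44.4% were lower and 3.54% higher at E14.5 than in the dorsal bud, with a median of −0.85. In the dorsal bud, against Cldn6-positive foregut cells, 25.2% were lower and 14.9% higher. Of 34 let-7 target genes 23 were lower and 3 higher at E14.5 than in the dorsal bud, with a median of −2.02, and the 3 higher were Plagl1 (8.15), Col3a1 (7.84) and Myc (1.41). In the dorsal bud, against Cldn6-positive foregut cells, 14 were lower and 6 higher, with Myc, a growth regulator, at −5.83 and Hmga1, the paralog of Hmga2, at −2.20. Of 15 genes of let-7 biogenesis, 12 were lower and none higher at E14.5, among them Drosha and Xpo5, which cut and export precursors, at −3.41 and −2.38. Messages on both lists were thus lower at E14.5, but both counts include members, and the other genes of each list were not counted alone. Of 9 DNA methylation enzymes 7 were lower at E14.5, including Uhrf1 (−2.45) and Tet1 (−2.43). Of 9 high mobility group genes 6 were lower, including Hmga1 (−4.55) and the member Hmga2 (−2.97). Of 10 genes of IGF ligands, receptors and binding proteins 4 were lower, a share near that of all genes, and 5 higher, with Igfbp2 at −5.94 and Igf1 at 4.36. Of 6 early embryonic genes 4 were lower, with Sall4, a transcription factor of early embryonic cells, at 0 in E14.5 cells and 6.42 in the dorsal bud.

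Messages of proliferation genes moved with the members in some comparisons and against them in others. Of 20 proliferation genes 19 were lower at E14.5 than in the dorsal bud (44.4% of all genes), among them Ccnb1 (−3.96) and Birc5 (−3.67), and 20 of 20 were lower both within Epcam-positive (38.1%) and within Col3a1-positive cells (50.1%). In the dorsal bud, against Cldn6-positive foregut cells, 11 were lower (25.2%) and 5 higher (14.9%). In Alb-positive liver cells, against Cldn6-positive foregut cells, 7 were lower (43.1%) and 11 higher (8.91%), while 5 members were lower. At E10.5 all 20 were higher in Col3a1-positive than in Epcam-positive dorsal cells (25.3%), and all 20 were lower in dorsal cells with endocrine markers than in the other Epcam-positive cells (17.9%) and in Col3a1-positive cells of the liver than of the dorsal bud (55.1%). The part of proliferation in the differences of the members was not tested. In the Col3a1-positive cells of E14.5 Prox1 was detected in 10 of 58, against 10 of 10 Epcam-positive cells, so the message of the gene behind the sort was not detected in most E14.5 cells.

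Genes whose values over all cells of the 5 groups were most like those of a member were named by Pearson's r, as a description of cells that share plates and depth. Lin28a was most like Prtg (0.64), Bcat1 and Col18a1 (both 0.63). Lin28b was most like Hoxd3, Rfx4 and Bcat1 (each 0.51), of which Rfx4 is a neural tube gene. Trim71 was most like Lin28a and Hmga1 (both 0.49), and Igf2bp1 most like Sall4 (0.57), Slc16a3 (0.56) and Lin28a (0.55). Hmga2 had lower values, with Sox11 at 0.40 and Id2 at 0.39, and Dnmt3b was most like Pdzph1 (0.47) and Hoxd3 (0.44).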

How the data were processed

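Single GFP-positive cells sorted into plates were sequenced, 1 cell per sample. The submitters' processing notes name STAR 2.5.3, Cufflinks, Cuffdiff 2.2.1 and GRCm38. The authors deposited 1 table of log2 values per gene and cell, with empty cells for no read, read here as 0. Of 1647530 deposited values 1647510 lay within 0.01 of whole reads once a single factor per cell was divided out, so the values are log2(reads / size factor + 1). The series text speaks of 452 processed cells, of which 346 are analysed here. No fitted test was used, since each group counts as 1 sample. Means, SDs, shares with exact intervals and differences of mean log2 values were computed with Python 3.11.15, numpy 2.4.6, pandas 2.3.3 and scipy 1.17.1, and figures with matplotlib 3.10.9. Differences were computed for all 11688 genes found with at least 5 normalized reads in at least 5% of cells. The scripts were tested on simulated data. The members, gene lists and comparisons were chosen with earlier results of these data known. All 8 members are described, genes of a list are named only from the 5 of largest difference, and likewise from the 5 most like each member. Alternatives were another pseudocount, linear means, other scalings, thinning, other E8.5 cells, single plates and cells with Prox1. Comparisons by cardiac or endocrine markers and those between classes of the E10.5 tissues were added after seeing the data. Doublets were not called.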

Additional observations from a re-analysis of the deposited data

Results flagged for a closer look

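A cell far from the others of its group was found for 4 genes in the classes of 10 or fewer cells. The rule flags about 1 in 20 groups by chance only where values are normally distributed. In a class with reads in a single cell it always flags that cell, as for Lin28b, Trim71 and Dnmt3b here. Among the 7 Cldn6-positive foregut cells, Lin28b was 4.82 in 1 cell and 0 in the others. Among the 10 Epcam-positive cells of E14.5, the highest cell had 7.23 for Trim71, 6.68 for Igf2bp1 and 8.38 for Dnmt3b, while the next highest had 0, 2.76 and 0. The mean of each of these classes rests on that cell.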

How the results depend on the processing

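Of 195 recomputed counts of lower members in 18 comparisons, 185 stayed within 1.5 times the count given above. Some of them could not change. A limit of 2000 genes per cell left out no cell, and other Cldn6 limits picked the same 7 positive cells. Leaving out foregut cells with neural tube markers removed none of these 7. The 7 lower members at E14.5, against either bud, stayed between 6 and 7 under all alternatives run. The counts against Cldn6-positive foregut cells did not: with linear means they were 1 (dorsal bud), 1 (ventral bud), 2 (liver bud), and 1 each in Epcam-positive dorsal, Epcam-positive ventral and Alb-positive liver cells. On linear means 2 members were higher in the dorsal, 3 in the ventral and 4 in the liver bud. With a pseudocount of 10 the lower members were 2 in the dorsal bud and 3 in Epcam-positive ventral cells. A pseudocount of 10 also gave 1 for Col3a1-positive cells of E14.5 against the liver bud and 3 for cells with endocrine markers. Signs turned with linear means for Trim71 in the ventral bud (0.21), liver bud (1.07), Epcam-positive dorsal (0.0046) and Epcam-positive ventral cells (0.32), for Hmga2 in Alb-positive liver cells (0.73), and for Igf2bp3 in the liver comparison of cells with cardiac markers (0.72) and of Col3a1-positive cells (0.049). Lin28b turned with other E8.5 cells, to −2.51 (all) and −0.61 (Epcam-positive) for the dorsal bud, and to −2.71 and −0.82 for Alb-positive liver cells. Beyond how each setting weights cells without reads, the cause was not tested. Median-of-ratios scaling moved the median of all genes to −1.25 in the liver bud, against −0.93 as deposited. No paired analysis was possible because the results come from no test and the cells carry no shared replicate numbers. The 7 Cldn6-positive cells and the unknown number of embryos limit every comparison with E8.5.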
